A study of Mus musculus with 6 samples.

Results

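The genes of oxidative phosphorylation were compared between leukaemic mouse B cells without and with gamma-catenin. They were taken by their symbols, which name subunits of the respiratory chain complexes and of ATP synthase (Nduf with a, b, c, s or v, the 4 Sdh genes, Uqcr, Cox4 to Cox8 and Atp5), from array probe sets that carry exactly 1 gene symbol. This gave 89 of 19938 genes, measured by 114 probe sets, and each gene was represented by its brightest probe set on average. Where a probe set lies was not examined, so signal from processed copies of a gene may be part of its value. Of these, 43 belong to complex I by symbol, 4 to complex II, 8 to complex III, 17 to complex IV and 17 to complex V. The symbol pattern also takes in 7 assembly factors of complex I (Ndufaf1 to Ndufaf7) and 3 genes that are not ordinary subunits of the complex of their symbol: Ndufa4, since placed in complex IV, its relative Ndufa4l2, and Cox7a2l, which joins complexes into supercomplexes.

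Both groups were C57BL/6 donor cells that carried CD45.2 and expressed the fusion kinase BCR-ABL1 from a retrovirus with green fluorescent protein. In the KO group (3 arrays, genotype Jup-/-) the donor marrow came from chimeras rebuilt with fetal liver lacking gamma-catenin (plakoglobin), the product of Jup. In the WT group (3 arrays, Jup+/+) the fetal liver had the gene. Fetal liver cells had first been placed in CD45.1+ hosts, whose marrow was transduced at least 8 weeks later and moved into irradiated CD45.1+ recipients, so the retrovirus and both rounds of transplantation were common to KO and WT. Fluorescent B220+ BP-1+ CD45.2+ cells were sorted from bone marrow at day 21, and each sample was labelled a biological replicate. The question was which transcripts differ with the loss of gamma-catenin, which the title of the study ties to the progression of this leukaemia.

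Complexes I to IV pass electrons from NADH and succinate to oxygen and pump protons across the inner mitochondrial membrane, except for complex II, which pumps none. Complex V uses the returning protons to make ATP. Most subunits are encoded in the nucleus, while the proton-pumping heart of the complexes also holds subunits made from mitochondrial DNA. Dividing B cell precursors use the pathway both for ATP and to regenerate the oxidised cofactors that nucleotide and amino acid synthesis need, and nuclear subunit genes are classically regulated by NRF-1, by ETS factors such as GABP and by YY1, with PGC-1 proteins as co-activators.

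Some promoters of the subunit genes carry these factors' sequence motifs, and examples are shown to set the letters beside the values of the same genes. RefSeq promoter windows of build GRCm38.p6, 250 bases before to 50 after a gene's start, were found for 73 of the 89 genes. The motifs searched on both strands were the palindrome of NRF-1, whose letters are the capitals of the Uqcrc1 line, CCGGAAG for ETS factors, AAGATGGC for YY1 and CACGTG, the E-box that MYC and other factors bind, and no match overlapped a match of another motif. Capitals mark the match, and every stretch reads 5′ to 3′ on the gene's strand.
Ndufb8: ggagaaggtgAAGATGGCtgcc
Ndufa9: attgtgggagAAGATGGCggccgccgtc
Ndufc1: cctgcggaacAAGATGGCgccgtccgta
Ndufs4: tgcctacaggAAGATGGCggcggtc
Uqcrc1: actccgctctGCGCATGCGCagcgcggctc
Atp5g2: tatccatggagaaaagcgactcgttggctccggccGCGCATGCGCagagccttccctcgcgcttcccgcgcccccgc
Ndufa11: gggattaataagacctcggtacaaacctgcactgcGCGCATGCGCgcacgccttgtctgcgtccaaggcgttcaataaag
Atp5h: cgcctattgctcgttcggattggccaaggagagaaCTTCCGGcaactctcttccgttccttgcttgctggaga
Cox6b1: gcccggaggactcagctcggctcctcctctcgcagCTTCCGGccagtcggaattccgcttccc
Uqcr11: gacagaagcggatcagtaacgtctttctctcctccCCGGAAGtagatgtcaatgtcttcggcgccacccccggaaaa
Atp5g1: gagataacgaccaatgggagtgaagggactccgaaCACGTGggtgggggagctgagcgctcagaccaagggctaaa

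The 4 YY1 stretches lie at chr19:44555393-44555414 (Ndufb8), chr6:126849098-126849125 (Ndufa9), chr3:51408916-51408943 (Ndufc1) and chr13:114388045-114388069 (Ndufs4), all on the minus strand. The NRF-1 stretches lie at chr9:108936668-108936697 on the plus strand (Uqcrc1), chr15:102671048-102671124 on the minus strand (Atp5g2) and chr17:56717667-56717746 on the plus strand (Ndufa11). Those with an ETS motif, here on the opposite strand in Atp5h and Cox6b1, lie at chr11:115419920-115419992 (Atp5h), chr7:30626115-30626177 (Cox6b1) and chr10:80406846-80406922 (Uqcr11), and the E-box stretch at chr11:96075635-96075710 (Atp5g1), all of them for genes on the minus strand. The YY1 motif had 10 matches in the windows of these genes, and 8 of them began 22 to 38 bases past the annotated start on the gene's own strand. Its letters include ATG, and whether these matches lie at a start codon was not examined. The YY1 motif was held by 10 of 73 genes (13.7%), against 3.57% of all protein-coding genes and 3.19% of all genes with a window. The NRF-1 motif was held by 7 (9.59%), against 1.47% and 1.07%, and the ETS motif by 18 (24.7%), against 12.9% and 9.93%. The E-box was held by 6 (8.22%), against 8.91% of protein-coding genes and 8.09% of all.

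The arrays themselves bear on what follows. Jup was at log2 levels of 7.04, 7.06 and 7.27 in KO and 8.04, 7.62 and 8.51 in WT, without overlap (difference -0.93, SE 0.20, adjusted p = 0.171 in limma). Whether its probe set lies in the deleted stretch is not known here. Array medians were 7.53 to 7.61 and any pair of arrays correlated at r of 0.986 to 0.994 across rows, which are not independent. WT replicate 1 stood furthest from its group (limma array weight 0.336, against 0.938 to 2.122 for the others), and WT replicate 2 was the only array without Xist, at 6.20 against 13.03 to 13.38 elsewhere. Early B-lineage markers were present in every array, for example Cd79a at 13.60 to 13.76, and none of the 14 measured lay below the array median. At an unadjusted p under 0.05 in limma, Rag1 and Rag2, the recombinase of antigen receptor genes, differed by 0.50 and 0.42 (adjusted p = 0.379 and 0.260) and Enpep, which encodes the BP-1 of the sort, by -0.23 (adjusted p = 0.50). Of the 8 erythroid markers measured, 4 were lower and 4 higher in KO (median 0.001), where 55.8% of all probe sets had a lower KO mean. Car1 passed, at 0.74 (limma adjusted p = 0.0307), as 0.0505% of all probe sets did in that direction, while Car2 gave -0.38 (limma adjusted p = 0.518). Myeloid markers were higher in KO for 16 of 18 measured, where 9641 of all 21789 probe sets were. Of the 18, 3 were higher past the threshold in limma, against 0.0505% of all probe sets. The mean level of the myeloid markers was 8.49 to 8.60 in KO and 7.69 to 8.17 in WT. No member of that list is at 0 on this scale, and 5 of them, including Csf1r and Cd14, lay below the array median everywhere. In sorted bulk samples fewer cells of a type and less RNA per cell cannot be told apart.

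As a group, the oxidative phosphorylation genes had slightly lower levels in KO, with no gene past the threshold. Of the 89 genes 75 (84.3%) had a lower KO mean, against 55.8% of all 21789 probe sets tested. The median log2 difference was -0.094, with a range of -0.28 to 0.44, where the median of all probe sets was -0.016. No gene passed in either direction at an adjusted p under 0.05 (limma, over all probe sets, where 0.119% passed, 0.0688% lower and 0.0505% higher), and the lowest adjusted p was 0.359. None passed at an adjusted p under 0.1 either, where 0.266% of all probe sets did. At an unadjusted p under 0.05, 14 genes were lower, against 4.73% of all probe sets, and 0 were higher, against 4.48%. All 3 KO arrays lay below all 3 WT arrays for 27 genes (30.3%), against 8.08% of all probe sets, and above them for 0, against 5.94%. Shares were higher among the 2489 probe sets at or above the median level of the 89 genes. There, 61.3% had a lower KO mean, 6.55% were lower at an unadjusted p under 0.05 and 17.9% had all KO arrays below all WT arrays. The 89 genes lie on both sides of that level, and their own shares above it were not counted. The count of 14 depended on the arrays used. It was 22 when KO replicate 1 was left out, 1 for KO replicate 2 and 4 for KO replicate 3, and 7 and 5 when WT replicates 2 and 3 were left out in turn. The part of the myeloid markers, of WT replicate 1 and of brightness in these counts was not tested, beyond the values without that array and with the trend in brightness removed that are given at the end.

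**Figure D1:**
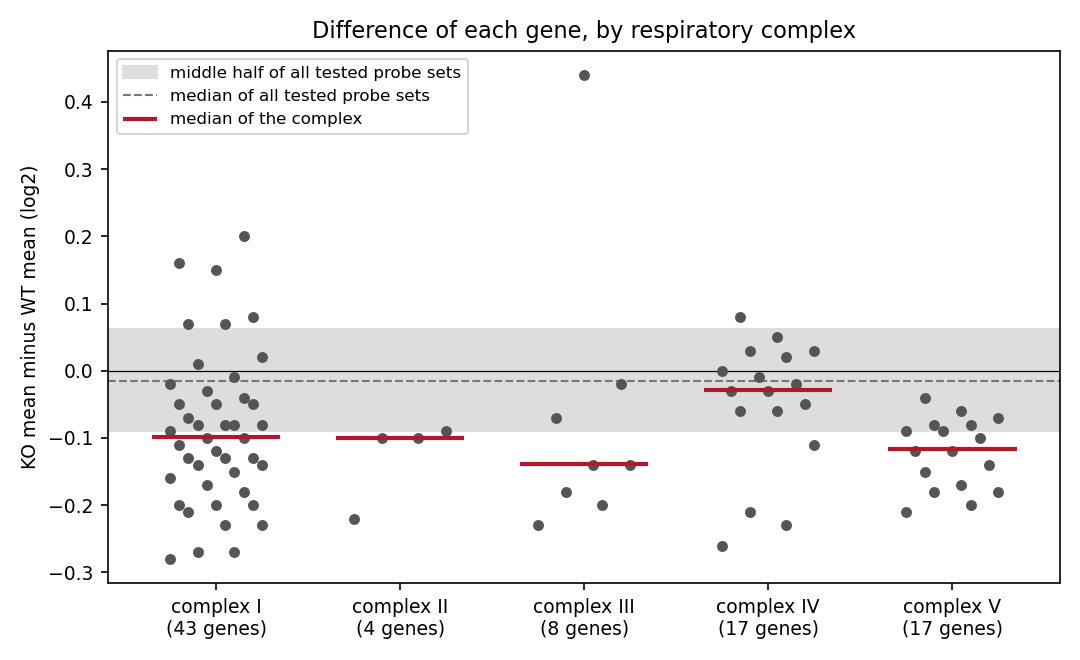
KO mean minus WT mean (log2) of each of the 89 genes, by complex. Points are genes, red bars the complex medians (-0.098, -0.100, -0.138, -0.029 and -0.117 for complexes I to V), the dashed line the median of all tested probe sets (-0.016) and the grey band their middle part between the quartiles (-0.089 to 0.062). Complex V lies wholly below 0, and the highest point is Uqcr11 at 0.44.

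The lower level was carried by KO replicates 2 and 3, while KO replicate 1 lay at the WT level. As the deviation from a gene's WT mean, the median over the 89 genes was -0.001, -0.128 and -0.145 in KO replicates 1, 2 and 3, and 0.040, -0.010 and -0.020 in WT replicates 1, 2 and 3. In KO replicate 1, 45 of 89 genes lay below their WT mean, in KO replicate 2 77 and in KO replicate 3 80. KO replicate 1 was the highest of the 3 KO arrays for 75 genes (84.3%), against 31.1% of all probe sets and 47.5% of those at or above the median level of the 89 genes. WT replicate 1 was the highest WT array for 49 (55.1%), against 39.5% of all and 59.3% of those bright probe sets. The median deviation of the myeloid markers was 0.551, 0.620 and 0.690 in KO replicates 1, 2 and 3, and their part in this pattern was not tested.

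**Figure D2:**
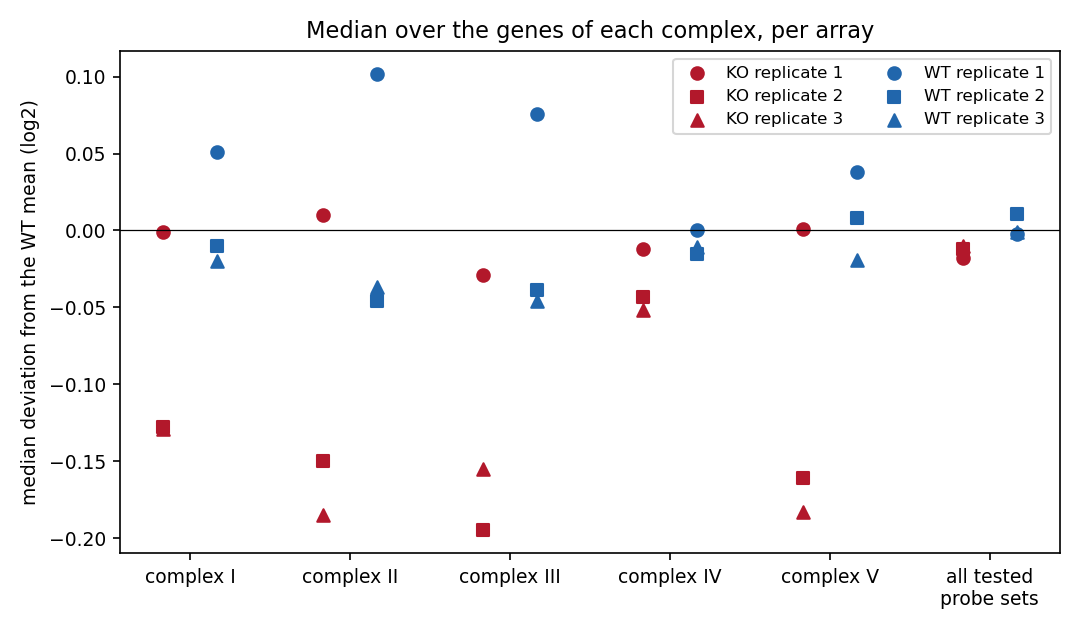
Median deviation from the WT mean (log2) over the genes of each complex, for each array, with all tested probe sets at the right. Red marks are KO and blue marks WT, and circle, square and triangle are replicates 1, 2 and 3. KO replicate 1 lies between -0.029 and 0.010 in all 5 complexes, whereas KO replicates 2 and 3 lie between -0.195 and -0.128 in every complex but IV.

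Complex I, the NADH dehydrogenase and entry point of most electrons, had 35 of 43 genes with a lower KO mean (81.4%) and a median of -0.098. A lower KO mean was found for 55.8% of all probe sets and 61.3% of the bright ones. In complex I, 9 genes were lower at an unadjusted p under 0.05 (20.9%). The shares were 4.73% of all probe sets and 6.55% of the bright probe sets described above. Ndufb8, an accessory subunit of the membrane arm, measured 9.97, 9.74 and 9.88 in KO and 10.14, 10.17 and 10.10 in WT. Its groups did not overlap, with means of 9.86 ± 0.12 in KO and 10.14 ± 0.03 in WT (SD, n = 3 each), which is 1.21-fold lower (log2 difference -0.27, SE 0.08, limma adjusted p = 0.359). Ndufa8, an accessory subunit on the intermembrane side, was at 10.78, 10.66 and 10.78 in KO and 10.94, 10.94 and 11.13 in WT, likewise without overlap. Ndufc1, a small membrane subunit, was at 10.57, 10.47 and 10.54 in KO and 10.68, 10.77 and 10.74 in WT, a difference of -0.21 (SE 0.07, limma adjusted p = 0.435). For these 3 genes the gap between groups was present in every KO array, KO replicate 1 included. Of the 9 genes, the others were Ndufs5, Ndufa9 and Ndufb3, accessory subunits with differences of -0.23, -0.23 and -0.20, and the assembly factors Ndufaf4, Ndufaf2 and Ndufaf6, with -0.28, -0.20 and -0.20.

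The catalytic subunits of complex I had smaller differences than the accessory subunits just named. Those were picked for their low moderated t, so the choice itself sets this contrast. Over all 5 complexes, the median was -0.095 for the 19 catalytic core subunits and -0.105 for the 53 accessory or structural subunits. Ndufv1, the flavoprotein that binds NADH, measured 10.15, 10.07 and 10.27 in KO and 10.24, 10.30 and 10.35 in WT, so that KO replicate 3 overlapped the WT arrays (difference -0.14, SE 0.08). Ndufv2, an iron-sulphur subunit beside it, had a difference of -0.17 without overlap, and Ndufs3 one of -0.13. Ndufs1, the largest iron-sulphur subunit, was at 9.99, 9.88 and 9.69 in KO and 9.94, 9.87 and 9.76 in WT, a difference of -0.01 (SE 0.10) that became positive when KO replicate 3, or either of WT replicates 1 and 2, was left out. Ndufs7 and Ndufs8, which carry the last iron-sulphur clusters before ubiquinone, gave -0.03 and -0.05 (SE 0.07 each).

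By symbol class, the 9 Ndufb genes had a median of -0.135, the 10 Ndufs and Ndufv genes -0.119 and the 15 Ndufa genes -0.084. KO replicates 2 and 3 lay well below 0 in the Ndufb class (median deviations -0.176 and -0.177), as in the Ndufs and Ndufv class (-0.178 and -0.163), and less so in the Ndufa class (-0.061 and -0.102). Whether these classes differ was not tested.

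In 8 complex I genes the KO mean was higher, and none of them passed. Ndufb2, an accessory subunit, measured 8.43, 8.37 and 7.84 in KO and 8.49, 7.79 and 7.78 in WT. KO replicates 1 and 2 and WT replicate 1 were high and the other 3 arrays low, so the difference of 0.20 (SE 0.22) was smaller than the spread within either group (SD 0.32 in KO and 0.41 in WT). Ndufa11, of the membrane arm, was at 11.36, 11.21 and 11.18 in KO and 11.23, 11.35 and 10.72 in WT, and its difference of 0.15 was -0.042 without WT replicate 3, the lowest array. Ndufaf3, an assembly factor that works with Ndufaf4, had the highest moderated t of the complex at 0.16 (SE 0.10, limma adjusted p = 0.729), while Ndufaf4 gave -0.28 (SE 0.10, limma adjusted p = 0.453).

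**Figure D3:**
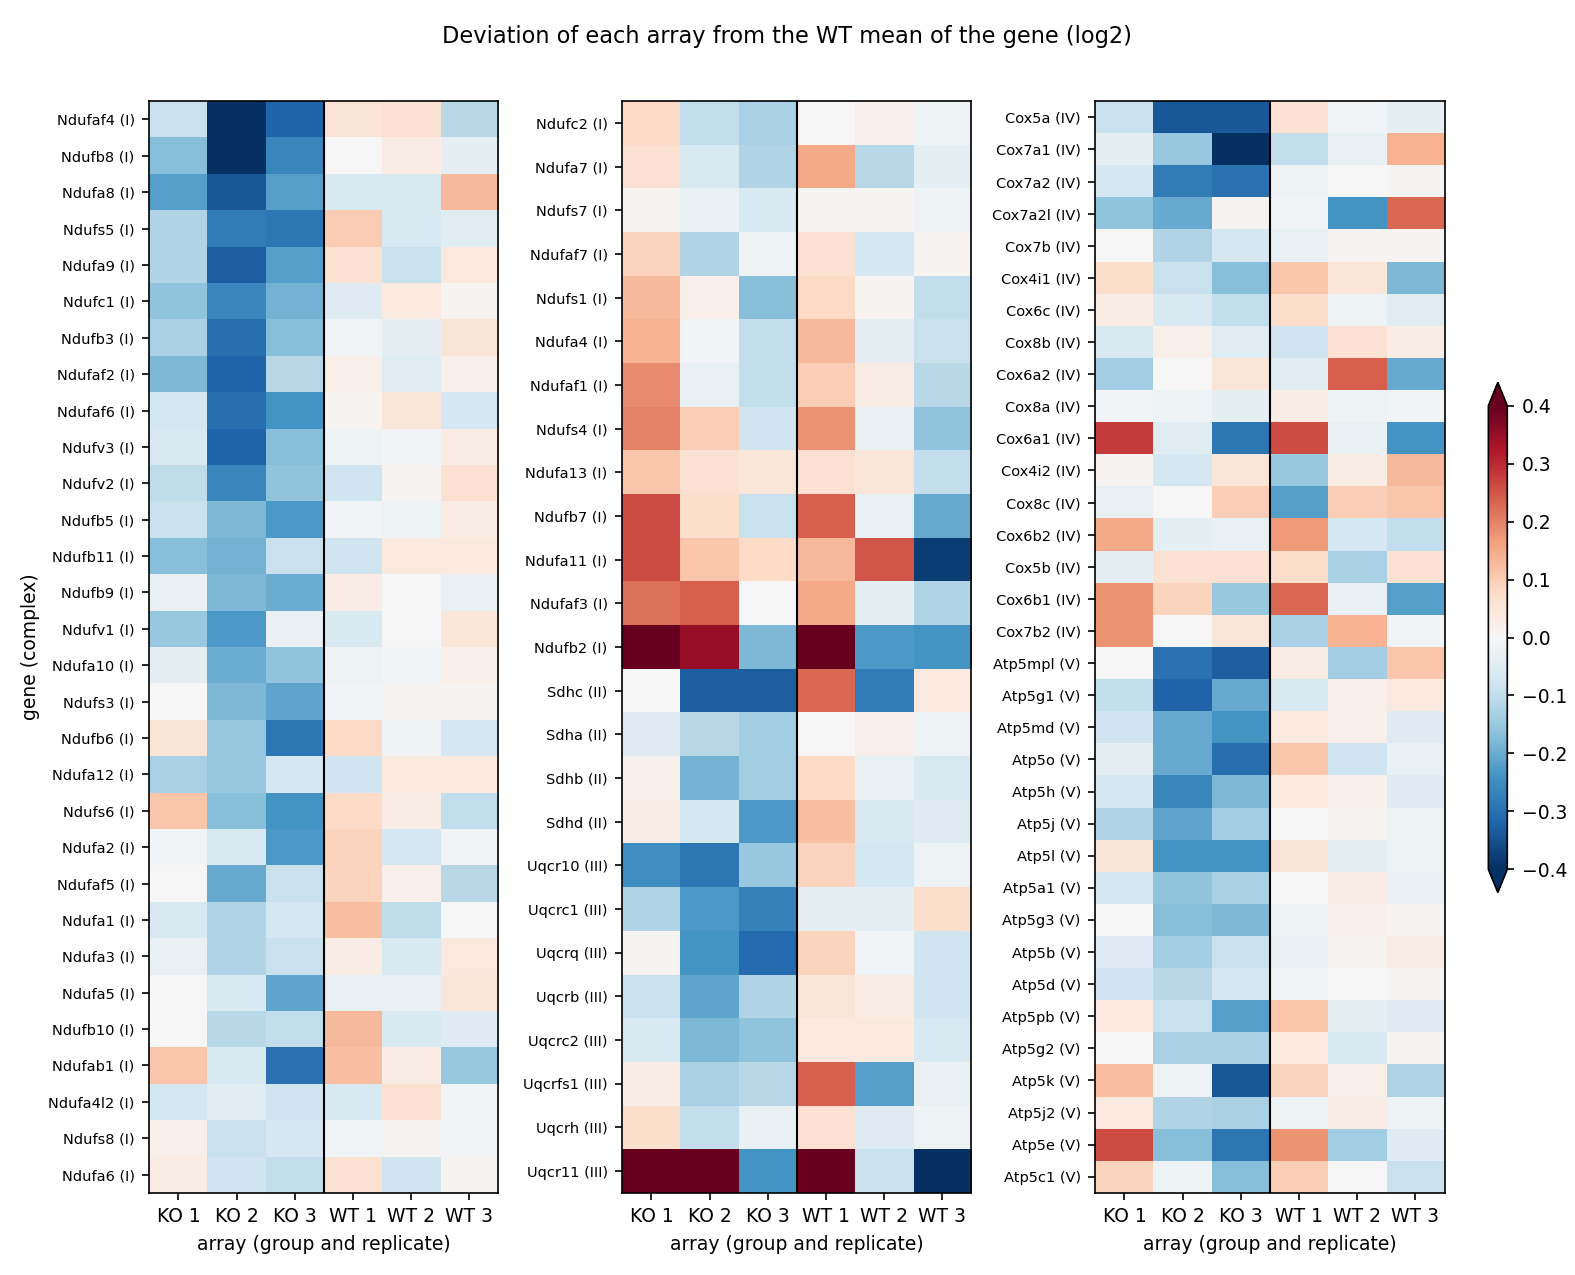
Deviation of each array from the WT mean of each gene (log2, colour scale limited to -0.4 to 0.4), with the 3 KO arrays left of the 3 WT arrays and genes sorted by complex and difference. Columns KO 2 and KO 3 are blue for most genes, KO 1 lies on both sides of 0, and Uqcr11, Ndufb2 and Cox6a1 are high in KO 1 and WT 1.

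Complex II, succinate dehydrogenase, links the chain to the tricarboxylic acid cycle, and all 4 of its genes had a lower KO mean (median -0.100), with 0 past any threshold. A lower KO mean was found for 55.8% of all probe sets and 61.3% of the bright ones. Sdha, the flavoprotein, measured 11.19, 11.13 and 11.10 in KO and 11.24, 11.26 and 11.22 in WT, a narrow gap without overlap (difference -0.10, SE 0.07, limma adjusted p = 0.748). Sdhb, the iron-sulphur subunit, also gave -0.10 (SE 0.09), but KO replicate 1 at 11.07 lay among the WT arrays at 10.99 to 11.13. Sdhc, a membrane anchor, was at 11.26, 10.93 and 10.93 in KO and 11.49, 10.98 and 11.30 in WT. Its difference was the largest of the complex at -0.22, yet both groups spread widely (SD 0.19 in KO and 0.26 in WT). Sdhd, the other anchor, gave -0.09 (SE 0.09).

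Complex III, the cytochrome bc1 complex that passes electrons from ubiquinol to cytochrome c, had a median of -0.138 and 7 of 8 genes with a lower KO mean (87.5%). The shares were 55.8% of all probe sets and 61.3% of the bright ones. Uqcr10, a small subunit, measured 9.51, 9.47 and 9.61 in KO and 9.85, 9.69 and 9.74 in WT, and was 1.17-fold lower (difference -0.23, SE 0.08, limma adjusted p = 0.427). Uqcrc1, a core protein of the matrix side, was at 11.46, 11.35 and 11.31 in KO and 11.54, 11.54 and 11.65 in WT (difference -0.20, SE 0.08, limma adjusted p = 0.468). Neither gene's groups overlapped, and the same held for Uqcrb, a subunit at the ubiquinone site, at -0.14. Uqcrc2, the other core protein, gave -0.14 as well, with KO replicate 1 at 12.26 and WT replicate 3 at 12.26. Uqcrfs1, the Rieske iron-sulphur protein, gave -0.07 (SE 0.12) and turned to 0.056 without WT replicate 1, and Uqcrh, the hinge protein, gave -0.02 and turned to 0.021 and 0.012 without KO replicate 2 and WT replicate 1.

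Uqcr11, a small accessory subunit, had the largest difference of all 89 genes and the largest error. It measured 10.93, 10.70 and 9.79 in KO and 10.57, 9.94 and 9.58 in WT. KO replicates 1 and 2 and WT replicate 1 were high and the other 3 arrays low, as in Ndufb2, and the groups overlapped over most of their range. The difference of 0.44 had an SE of 0.32 (limma adjusted p = 0.758). Its other probe set gave the same order of arrays, with 10.05, 9.77 and 8.95 in KO and 9.72, 9.08 and 8.73 in WT, and a difference of 0.41. The source of this spread within genotypes was not tested.

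Complex IV, cytochrome c oxidase, reduces oxygen and had the median difference nearest to 0 of the 5 complexes. Its median was -0.029, and 12 of 17 genes had a lower KO mean (70.6%). The shares were 55.8% of all probe sets and 61.3% of the bright probe sets described above. KO lay wholly below WT for 2 genes (11.8%), against 8.08% of all and 17.9% of bright probe sets. The 17 include 7 dimmer tissue isoforms, at mean levels of 4.66 to 8.16 and described below. Without them the median of the other 10 genes was -0.053. Of these 10, 8 had a lower KO mean (80%) and 2 lay wholly below WT (20%). The 2 genes were Cox5a and Cox7a2. Cox5a, a subunit on the matrix side, measured 11.34, 11.09 and 11.09 in KO and 11.49, 11.42 and 11.39 in WT, 1.20-fold lower (difference -0.26, SE 0.09, limma adjusted p = 0.427). Cox7a2, the widely expressed form of its subunit, was at 10.62, 10.41 and 10.39 in KO and 10.67, 10.69 and 10.70 in WT (difference -0.21, SE 0.09, limma adjusted p = 0.494).

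Other ubiquitous subunits of the oxidase lay close to 0. Cox4i1, which helps set the response of the enzyme to ATP, measured 10.87, 10.71 and 10.63 in KO and 10.91, 10.85 and 10.62 in WT, a difference of -0.06 (SE 0.10). Cox6c gave -0.05, Cox7b -0.06, Cox8a -0.02 and the zinc-binding subunit Cox5b 0.03 (SE 0.08), the last turning to -0.037 without WT replicate 2, and its other probe set gave -0.04. Cox6a1 (-0.01, SE 0.17) and Cox6b1 (0.05, SE 0.13) had their highest value in replicate 1 and their lowest in replicate 3 of both groups, as Uqcr11 did, and the sign of both depended on the arrays used. Cox6b1, for example, was at 12.17, 12.08 and 11.84 in KO and 12.22, 11.96 and 11.77 in WT.

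The isoforms that muscle, lung or testis use in place of these subunits form a class of their own. Of 7 such genes none differed at an unadjusted p under 0.05, and their median was -0.004. Cox7b2 and Cox6b2, known from testis, were dim at 4.70 and 6.91 in KO and 4.62 and 6.88 in WT, below the array medians, as was Cox8b, a heart and muscle form, at 6.78 in KO and 6.81 in WT. Cox4i2, the hypoxia-responsive form of subunit 4 in lung, was at 7.62, 7.54 and 7.66 in KO and 7.46, 7.64 and 7.74 in WT, and Ndufa4l2, induced by hypoxia through HIF-1 in other cells, at 6.77, 6.79 and 6.76 in KO and 6.78, 6.90 and 6.83 in WT. Cox7a1, the heart and muscle form of subunit 7a, had a difference of -0.23 (SE 0.12) that came mostly from KO replicate 3, at 7.79 against 8.23 and 8.12 in the other KO arrays and 8.17 to 8.41 in WT, and it was -0.10 without that array. Cox6a2, from heart and muscle, and Cox8c, from testis, gave -0.03 and 0.02.

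**Figure D4:**
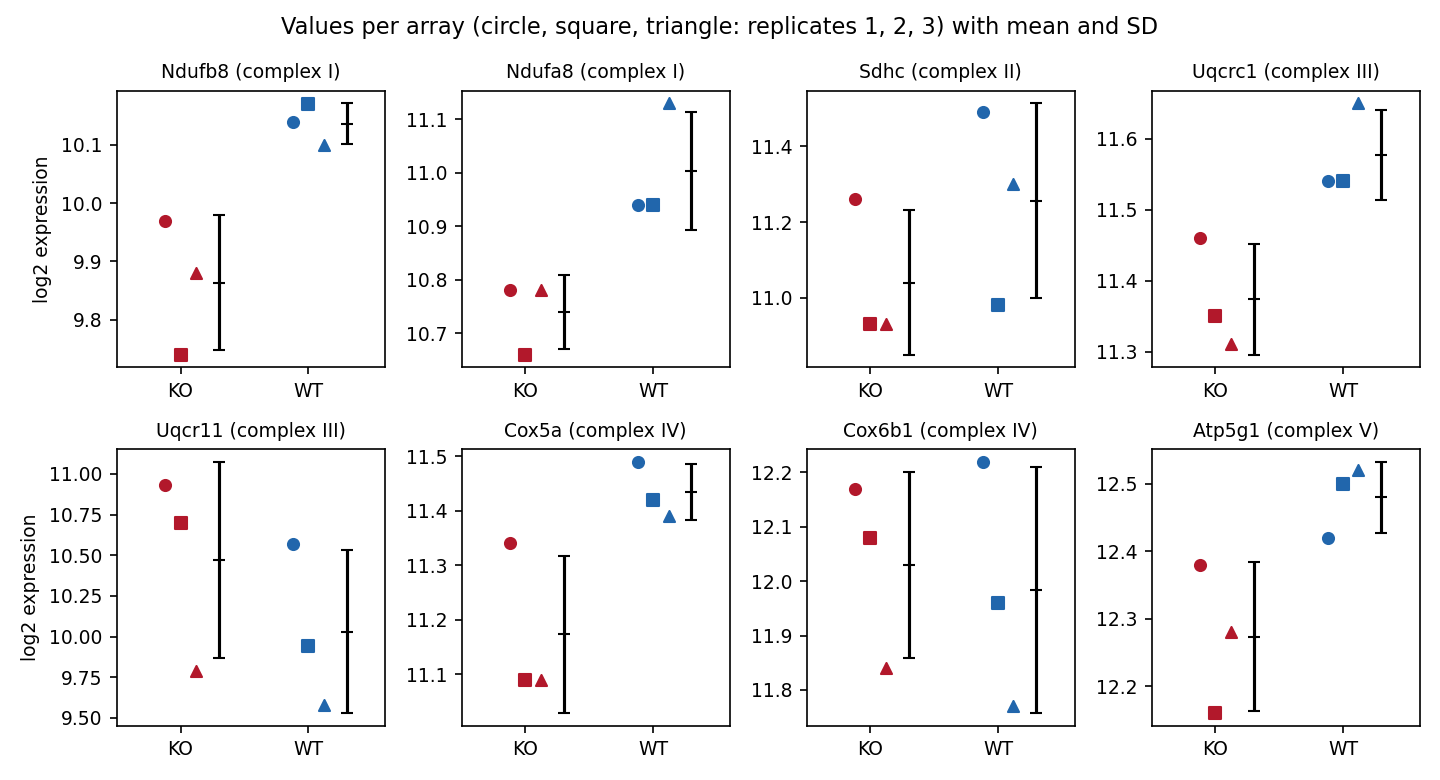
Log2 expression of 8 genes in each array, with the group mean and SD (n = 3 each) beside the points. Each panel has its own vertical axis, which does not start at 0. The groups are apart in Ndufb8, Ndufa8, Uqcrc1, Cox5a and Atp5g1, and overlap in Sdhc, Uqcr11 and Cox6b1.

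In complex V, the ATP synthase, all 17 genes had a lower KO mean, with differences between -0.21 and -0.04 and a median of -0.117. A lower KO mean was found for 55.8% of all probe sets and 61.3% of the bright ones. KO lay wholly below WT for 7 of the 17 genes (41.2%), against 8.08% of all probe sets and 17.9% of the bright probe sets described above. Only 1 was lower at an unadjusted p under 0.05 (5.88%, against 4.73% of all and 6.55% of bright probe sets). That gene was Atp5g1, which encodes subunit c, the ring that turns in the membrane. It measured 12.38, 12.16 and 12.28 in KO and 12.42, 12.50 and 12.52 in WT, 1.15-fold lower (difference -0.20, SE 0.08, limma adjusted p = 0.510), and its other probe set gave -0.21. The genes Atp5g2 and Atp5g3 encode the same mature subunit c behind different import signals, and gave -0.08 (SE 0.08) and -0.12 (SE 0.08). Atp5g2 was at 13.05, 12.92 and 12.92 in KO and 13.09, 12.99 and 13.06 in WT, with KO replicate 1 among the WT arrays.

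The catalytic head of the synthase showed small and even gaps. Atp5b, the catalytic beta subunit, measured 13.50, 13.41 and 13.46 in KO and 13.52, 13.56 and 13.58 in WT (difference -0.10, SE 0.07). Atp5a1, the alpha subunit, was at 12.22, 12.13 and 12.16 in KO and 12.29, 12.32 and 12.26 in WT (difference -0.12, SE 0.07, limma adjusted p = 0.687), and Atp5d, of the rotating stalk, gave -0.09. KO lay below WT in every array for these 3. Atp5c1 and Atp5e, the gamma and epsilon subunits of the stalk, gave -0.04 and -0.06, and both turned positive without KO replicate 3 or WT replicate 1.

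In the peripheral stalk and membrane part of the synthase, Atp5h measured 11.99, 11.80 and 11.88 in KO and 12.10, 12.08 and 12.01 in WT, a difference of -0.17 (SE 0.08), and its 3 probe sets lay between -0.20 and -0.17. Atp5md, a small subunit found in the dimeric enzyme, gave -0.18 (SE 0.08) and Atp5j, of the stalk, -0.15, also without overlap. Atp5o, which joins the stalk to the head and confers sensitivity to oligomycin, gave -0.18 (SE 0.09), with KO replicate 1 at 11.51 inside the WT range of 11.47 to 11.66. Across all 89 genes, 17 have several probe sets, 42 in all, and only Cox5b had probe sets of opposite sign.

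Genes with and without the promoter motifs shown above had similar differences. The median difference was -0.08 for genes with the NRF-1 motif and -0.09 for those without it, -0.07 and -0.10 for the ETS motif, -0.10 and -0.09 for the YY1 motif, and -0.13 (6 genes) and -0.09 for the E-box. Among those printed, Ndufb8, Ndufa9 and Ndufc1 (YY1), Uqcrc1 (NRF-1) and Atp5g1 (E-box) were lower at an unadjusted p under 0.05 in limma. Of all probe sets, 4.73% were. Ndufs4 gave 0.07 (SE 0.11) with the same YY1 letters as Ndufb8, Ndufa9 and Ndufc1.

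Lists of genes around the respiratory chain had medians between -0.133 and -0.046, where that of the 89 genes was -0.094. Of all probe sets, 55.8% had a lower KO mean, and 4.73% were lower and 4.48% higher at an unadjusted p under 0.05 in limma. Among those at or above the median level of the 89 genes, 61.3% had a lower KO mean and 6.55% were lower at that p. Proteins of mitochondrial import and dynamics had a lower KO mean for 28 of 30 genes (93.3%, median -0.103), with 5 lower at an unadjusted p under 0.05 (16.7%). Tomm20, the receptor of the outer membrane, measured 11.07, 10.80 and 11.04 in KO and 11.35, 11.30 and 11.38 in WT, a difference of -0.37 (SE 0.09, limma adjusted p = 0.243), and Vdac1, the channel of that membrane, gave -0.24. Mitochondrial ribosomal proteins, taken by symbol, were lower for 67 of 77 genes (87%, median -0.133), 10 of them at an unadjusted p under 0.05 (13%). Tricarboxylic acid cycle and pyruvate dehydrogenase genes were lower for 16 of 22 (72.7%, median -0.096) and 5 at that p (22.7%). Among the 5 was Dld, the dihydrolipoamide dehydrogenase shared by several complexes, at -0.24. Assembly factors outside the symbol pattern were lower for 23 of 37 (62.2%, median -0.046), 3 of them at that p (8.11%), both near the shares of the bright probe sets. Coa3, a factor for the first steps of cytochrome oxidase assembly, had the lowest value there, at 10.26, 10.11 and 9.96 in KO and 10.65, 10.57 and 10.43 in WT (difference -0.44, SE 0.10, limma adjusted p = 0.202). Electron carriers and coenzyme Q synthesis genes had a median of -0.078, with Coq4 at -0.25 and Coq7, a hydroxylase of the ring, at 0.29 (SE 0.09, limma adjusted p = 0.357), and 3 lower and 1 higher at an unadjusted p under 0.05. In none of these 5 lists did a gene pass the threshold in limma, and differences between the lists were not tested.

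Only 2 mitochondrially encoded subunits were measured by a probe set with 1 symbol. COX2, a catalytic subunit of complex IV, was at 13.56, 13.60 and 13.64 in KO and 13.57, 13.61 and 13.61 in WT, a difference of 0.01 (SE 0.07). ND3, of complex I, was at 13.00, 12.92 and 13.08 in KO and 13.09, 13.10 and 13.04 in WT (difference -0.08, SE 0.08, limma adjusted p = 0.838). The groups overlapped for both genes.

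Among regulators of mitochondrial gene expression, 12 of 21 had a lower KO mean (57.1%, against 55.8% of all probe sets). None passed the threshold in limma, and 2 were lower at an unadjusted p under 0.05 (9.52%, against 4.73%). Those were Myc, at 11.91, 11.40 and 11.64 in KO and 12.33, 12.01 and 12.05 in WT (difference -0.48, SE 0.14), and Sirt3, a mitochondrial deacetylase, at -0.26 (SE 0.09). Polg2, the accessory subunit of the mitochondrial DNA polymerase, and Esrra, a nuclear receptor that works with PGC-1, gave 0.18 and 0.17 (SE 0.08 each). Nrf1 and Gabpa, which encode NRF-1 and the DNA-binding part of GABP, gave -0.02 and 0.01, Yy1 -0.15 (SE 0.07) and Tfam, which packages mitochondrial DNA, -0.09, all named after their values were seen. Ppargc1a, which encodes PGC-1 alpha and was also named after its values were seen, was at 9.95, 8.31 and 8.63 in KO and 8.42, 8.33 and 8.18 in WT. KO replicate 1, whose oxidative phosphorylation genes lay at the WT level, was the highest array for Ppargc1a. KO replicate 3, at 8.63, also lay above every WT array, and its median deviation over the 89 genes was -0.145. KO replicate 2, at 8.31, lay among the WT arrays, with a median deviation of -0.128. A relation between these values was not tested.

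Of the 14 mitophagy and hypoxia genes, 9 had a lower (64.3%) and 5 a higher KO mean (median -0.045). That share was near the 61.3% of bright probe sets, and 55.8% of all probe sets had a lower KO mean. The threshold was passed by 1 of the 14 genes, against 0.119% of all probe sets. Bnip3, which marks mitochondria for removal and is induced by hypoxia, measured 10.45, 10.28 and 10.14 in KO and 11.22, 11.21 and 10.98 in WT, and fell by 0.85 on the log2 scale (SE 0.11, limma adjusted p = 0.0393). Its relative Bnip3l gave 0.09 (SE 0.07). Pdk1 and Ldha, HIF targets named after their values were seen, gave -0.20 (SE 0.10) and -0.17 (SE 0.08). Other hypoxia genes of the list went both ways, with Car9 at -0.18, Egln1 at -0.13, Slc2a1 at -0.02, Egln3 at 0.01, Ankrd37 at 0.04 and Vegfa at 0.08.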

How the data were processed

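Total RNA of 6 sorted samples was amplified, biotin-labelled and hybridised to oligonucleotide arrays, per the labels' protocols. What the authors deposited is log2 expression per probe set (2.26 to 14.56), for which the submitters' processing notes name RMA and Affymetrix Expression Console 1.1. RMA equalises the arrays, so a shift common to all genes is removed, and it compresses changes of dim probe sets. Its options are not known here. Arrays have no read depth, so precision is limited by having 3 arrays a group; the labels call replicates biological without naming separate animals, so p-values measure the spread between these samples.

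Of 35556 rows, 21789 carried exactly 1 symbol in the platform annotation, 1621 several and 12146 none here. All 89 gene IDs matched RefSeq of GRCm38.p6, whose symbols were the same. Differences are KO minus WT from limma 3.58.1 in R 4.3.3 (lmFit, eBayes, prior degrees of freedom 4.33, no covariate, no filter), with moderated SEs and Benjamini-Hochberg adjustment over the 21789 probe sets (threshold 0.05). The fit was tested on simulated data. The members, the gene lists, the rule for named genes and the tests were chosen with earlier results of these data known. That rule takes listed core subunits, genes with another gene of the same subunit, the 3 lowest and 2 highest moderated t of each complex and any gene past the threshold, and of other lists the 2 highest and 2 lowest moderated t. Genes outside it, such as Ndufs5, Ndufb2 or Atp5d, were named after their values were seen, to describe a count or class. Mitochondrial ribosomal proteins were added as a list after seeing the data. Each list gene entered by its brightest probe set.

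Alternatives were another normalization or centring, a filter at the 40th percentile, other sets of rows, priors, array weights, the replicate block, an adjusted p of 0.1, each array left out, averaged probe sets per gene, subunits only and bright members only. Removal of each array's trend with brightness was chosen after seeing the data.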

Additional observations from a re-analysis of the deposited data

How the results depend on the processing

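No oxidative phosphorylation gene passed the threshold under any alternative run, an adjusted p of 0.1 included. At an unadjusted p under 0.05, 14 were lower, 23 with a trended and robust prior and 1 to 22 with 1 array left out, the lowest without KO replicate 2 and the highest without KO replicate 1. Between 68 and 80 of 89 genes had a lower KO mean with 1 array left out, and 70 did with the brightness trend removed, where the median of all 89 was -0.078. It was -0.142, -0.078 and -0.071 without KO replicates 1, 2 and 3 in turn, -0.079 without WT replicate 1, which stood apart, -0.108 without WT replicate 2, which lacked Xist, and -0.113 without WT replicate 3. With 1 array left out, the medians were -0.13 to -0.062 for complex I (-0.062 without KO replicate 3), -0.158 to -0.078 for complex II, -0.168 to -0.109 for complex III and -0.176 to -0.095 for complex V (-0.158 and -0.176 without KO replicate 1). All kept their sign. That of complex IV was -0.001 with the brightness trend removed, -0.047 over bright members and -0.055 to -0.019 with 1 array left out. Replicate numbers are shared by KO and WT, but deviations of same-numbered arrays correlated at 0.104, -0.004 and 0.275, and not every array correlated best with its own number, so they were not taken as pairs. The replicate block left 0 genes past the threshold and 15 lower at an unadjusted p under 0.05, and 19 probe sets past it in all, against 26. That total was 55 after median centring (26 higher, 29 lower, against 11 and 15), 69 over all rows (10 and 59), 40 with the other prior, 150 with array weights (93 and 57), 58 at an adjusted p of 0.1 and 5 to 82 with 1 array left out. Of 48 named oxidative phosphorylation genes, 17 changed sign somewhere. With the brightness trend removed, Cox4i2 was at 0.008, Cox6a1 at 0.005, Cox8a at 0.016, Ndufs7 at 0.010, Uqcrh at 0.005 and Ndufs1 at -0.000. With array weights, Cox6a1 was at 0.015, Cox7b2 at -0.001, Cox8c at -0.047, Uqcrfs1 at 0.043 and Uqcrh at 0.001, and after median centring Ndufa4 was at -0.004. With 1 array left out, the ranges were -0.10 to 0.032 (Atp5c1), -0.22 to 0.05 (Atp5e), -0.08 to 0.057 (Cox4i2), -0.037 to 0.06 (Cox5b), -0.16 to 0.119 (Cox6a1), -0.13 to 0.093 (Cox6a2), -0.061 to 0.16 (Cox6b1), -0.036 to 0.11 (Cox6b2), -0.087 to 0.08 (Cox8c), -0.042 to 0.28 (Ndufa11), -0.057 to 0.07 (Ndufa4), -0.07 to 0.075 (Ndufs1), -0.17 to 0.056 (Uqcrfs1) and -0.06 to 0.021 (Uqcrh). The cause of these shifts was not tested. Few arrays and dim isoforms, whose signal is compressed, limit what could be seen.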

Other observations

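Some subunit genes share their probe sets with a second symbol and were outside the rule. Probe sets of Ndufb4 and Ndufb4b, an accessory subunit of complex I, measured 11.92, 11.75 and 11.92 in KO and 12.01, 12.09 and 12.19 in WT, a difference of -0.24 (SE 0.09), and their other probe set gave -0.22. The 3 probe sets of Cox7c and Gm12338, a subunit of complex IV, each gave -0.08 (SE 0.07), with KO below WT in every array. The probe set of Ndufs5 and Ndufs5-ps gave -0.06 (SE 0.10), where the probe set of Ndufs5 alone gave -0.23. Copies of a gene may add to such signals, so these values are given without a call.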
